A study of Mus musculus with 108 samples.

Results

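The early postnatal (P7) cerebellum (CB) of wild type (WT) and Cul3+/- mutant mice was compared, 6 mice of each genotype, which is 12 of the 108 libraries of the series. The libraries were chosen by their labels alone. Cul3+/- mice carry a 1 bp frameshifting insertion that was introduced into exon 6 of Cul3 by CRISPR/Cas9 in the germline, so that every cell type carries it, and the line descends from 1 founder bred with WT mice. All mice share the strain labelled C56Bl/6N and were untreated. Sex is not given in the labels, and Xist and Y-linked genes were exclusive of each other across the libraries, with 3 libraries of each kind per genotype.

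Cullin 3 is the scaffold of a family of E3 ubiquitin ligases in which interchangeable BTB-domain adaptors choose the protein to be degraded. Known substrates include RhoA, a regulator of the actin cytoskeleton, and the antioxidant transcription factor Nrf2. In the early postnatal CB, granule cell progenitors divide at the surface under Sonic hedgehog (Shh) from Purkinje cells, and their daughters migrate inward to form the granule layer, while vessels grow into the tissue and the meninges cover it. The choroid plexus of the fourth ventricle lies directly under the CB and secretes cerebrospinal fluid.

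The RNA was ribo-depleted and sequenced with strand, and library totals ran from 28471543 to 42071420 counts. Marker genes followed the labelled region. Expression is given as CPM, counts scaled to a common library size, here over the 12 CB libraries unless stated. Scaled over all P7 libraries instead, the CPM of Pcp2, a Purkinje cell gene, lay between 84.4 and 144 in the 12 CB libraries, with a median of 0 in P7 cortex (CX). In the labels, each mouse also has a name that starts with C1, C2 or C4, and what the prefix stands for is not stated. Prefix C1 held 2 mice of each genotype, C2 3 and C4 1.

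Some markers set single libraries apart. The choroid plexus list, 16 genes of the epithelium that makes cerebrospinal fluid, was scored by the mean log2 CPM of its members. The mutant libraries 1 to 6 scored 2.40, 3.47, −0.53, 3.90, 3.15 and 3.91, and the WT libraries 1 to 6 scored 1.66, −0.72, −0.50, −0.75, −0.39 and 3.27. Thus 5 of 6 mutant and 2 of 6 WT libraries were high. Mutant 1 was high for meningeal mesenchyme (4.77, against 3.984 to 4.215 in the other mutants) and for border macrophages. WT 2 was low for oligodendrocyte precursors (5.57, against 5.98 to 6.05 in the other WT libraries).

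The allele was present as labelled. Cul3 (ENSMUSG00000004364) lies on chromosome 1 at 80264923-80340480 of GRCm38, minus strand. The guide RNA used to make the line targets exon 6 of 16 of transcript Cul3-201 (exon 80286899-80287127), at chr1:80287041-80287063 on the minus strand. The site is shown because it is where the mutant allele was made, with the guide's target in lower case and the PAM in capitals:
Cul3 guide site: ggattaatgaggaaatagagCGG

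Cul3 transcripts numbered 217, 229 and 234 CPM (lowest, median and highest) in WT and 124, 127 and 133 CPM in mutants. The genotypes did not overlap, and the mutant mean (127 ± 3.16, SD, n = 6) was 56.1% of the WT mean (227 ± 6.37, SD, n = 6). The difference of −99.8 CPM gave p = 0.00216 in a two-sided exact permutation test, the smallest p that the design allows. The fitted log2 fold change was −0.83 (SE 0.033, adjusted p = 8.80e-09 by edgeR's quasi-likelihood test with Benjamini-Hochberg adjustment). The level stayed between 55.5% and 56.4% of WT when any 1 library was left out, and the difference was −0.84, −0.81 and −0.89 log2 CPM within prefixes C1, C2 and C4.

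**Figure D1:**
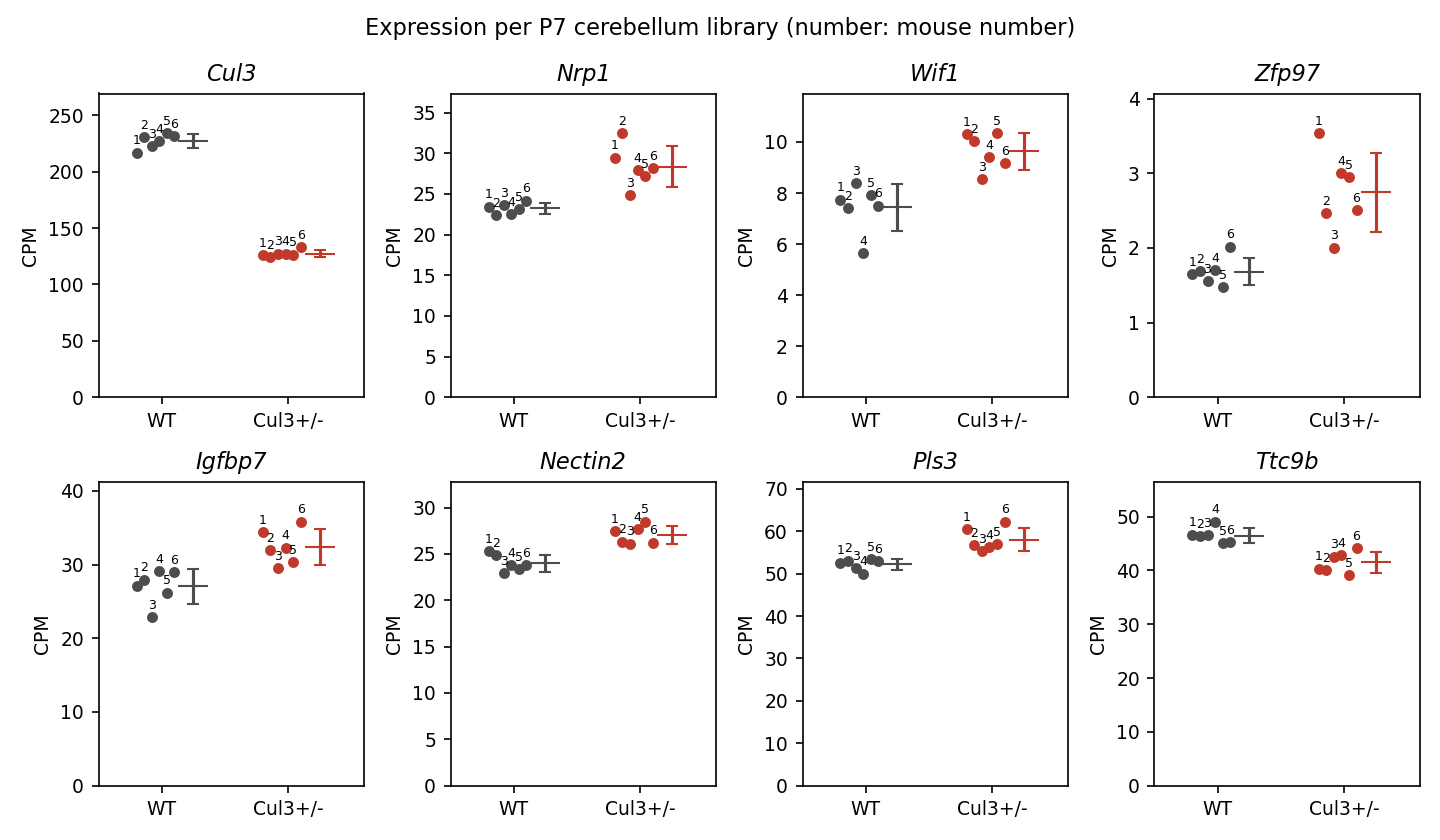
CPM of 8 genes in the 12 P7 CB libraries. The x axis gives the genotype (WT grey, Cul3+/- red), the y axis CPM from 0. Points are libraries numbered by mouse, and the horizontal line with bars is the mean ± SD. The 6 mutant values of Cul3 lie between 124 and 133, far below the WT values, whereas the other genes, which did not pass the test, differ by smaller amounts.

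Besides Cul3, no gene passed the test. Of 17532 genes tested, 1 was called at an adjusted p of 0.1 or less (0.0057%), and every other gene had an adjusted p of at least 0.915. At an unadjusted p under 0.05, 662 genes were higher (3.78%) and 195 lower (1.11%) in mutants, 4.89% in all. The median log2 fold change over all genes was 0.00, and 51.7% were above 0. The split between higher and lower rested on few libraries. Without mutant 1 there were 661 higher and 767 lower, without mutant 3 909 and 336, and without WT 6 1206 and 796. With a correction for unwanted variation (RUVs, estimated from the same libraries), 66 genes were called with 3 factors (0.376%) and 259 with 5 (1.48%), of which 8 and 11 belong to the choroid plexus list, 2 and 7 to meningeal mesenchyme and 0 and 3 to endothelium. DESeq2 called 3 genes (0.0171%) and the likelihood ratio test 2 (0.0114%).

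Single genes whose genotypes did not overlap numbered 30 higher (0.171%) and 3 lower (0.0171%), and the 3 were Cul3, Ttc9b and Atg7. They are described here by their values, since none but Cul3 passed the test across all genes. Nrp1, a co-receptor for semaphorins and for vascular endothelial growth factor, measured 22.4, 23.3 and 24.2 CPM in WT and 24.8, 28.1 and 32.5 CPM in mutants. Its log2 fold change was 0.29 (SE 0.058, adjusted p = 0.915 by edgeR and 0.0357 by DESeq2), and within prefixes C1, C2 and C4 the difference was 0.43, 0.20 and 0.23 log2 CPM. For a gene without overlap the sign within each prefix is fixed in advance. Igfbp7, a secreted binding protein for insulin-like growth factors that vessels produce, measured 22.8, 27.55 and 29.1 CPM in WT and 29.6, 32.1 and 35.8 CPM in mutants. Its log2 fold change was 0.26 (SE 0.066). Wif1, a secreted inhibitor of Wnt proteins, measured 5.65, 7.63 and 8.38 CPM in WT and 8.54, 9.72 and 10.3 CPM in mutants, a log2 fold change of 0.37 (SE 0.089). For Wif1 the lowest mutant and the highest WT library were close together, so its separation is narrow.

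Other genes without overlap had various roles, and whether any role was common among them was not tested. Pls3, which bundles actin filaments, measured 49.98, 52.8 and 53.5 CPM in WT and 55.3, 56.9 and 62.3 CPM in mutants, a log2 fold change of 0.15 (SE 0.038). Nectin2, an adhesion molecule of cell junctions, measured 22.9, 23.8 and 25.3 CPM in WT and 26.1, 26.9 and 28.5 CPM in mutants, a log2 fold change of 0.17 (SE 0.043). Rhbdl2, a rhomboid protease of the cell membrane, was much lower in level, at 0.64 CPM in WT and 0.96 CPM in mutants (medians), and its log2 fold change of 0.58 (SE 0.15) rests on few counts. Of the genes lower in mutants, Ttc9b, a tetratricopeptide repeat gene, measured 45.1, 46.4 and 49.1 CPM in WT and 39.1, 41.4 and 44.2 CPM in mutants, a log2 fold change of −0.16 (SE 0.040). Atg7, an enzyme that autophagy needs, measured 21.0, 21.3 and 22.1 CPM in WT and 18.6, 19.99 and 20.7 CPM in mutants, a log2 fold change of −0.11 (SE 0.044). With the choroid plexus score as a covariate the log2 fold changes were 0.21 for Nrp1, 0.19 for Igfbp7, 0.31 for Wif1, 0.12 for Pls3 and −0.15 for Ttc9b, so each kept its sign. The score itself differed between the genotypes (mean 2.72 in mutants, 0.43 in WT), so this fit cannot fully separate it from genotype. The median SE over all genes was 0.102 with the covariate and 0.084 without it. Whether choroid plexus content accounts for a difference was not tested, here or in the classes below.

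Zinc finger genes gave the 2 remaining values of interest. Zfp97 measured 1.47, 1.67 and 2.02 CPM in WT and 2.00, 2.73 and 3.54 CPM in mutants, with the lowest mutant just under the highest WT library. Its log2 fold change of 0.71 (SE 0.14) had an adjusted p of 0.915 by edgeR's quasi-likelihood test, 0.0524 by DESeq2 and 0.0859 by the likelihood ratio test. Zfp992, without overlap, measured 3.83, 4.48 and 5.33 CPM in WT and 5.41, 6.03 and 7.67 CPM in mutants, a log2 fold change of 0.44 (SE 0.11). Both belong to families with close copies, between which reads may be split, so their levels are less certain.

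Gene classes were then described by lists of marker genes. Counts from the main fit are read against the background of 3.78% of genes higher and 1.11% lower at an unadjusted p under 0.05. Fits with other settings have other backgrounds. Without mutant 1, 767 of 17709 genes were lower, and without WT 6, 1206 of 17668 were higher and 796 lower. By RUVs with 3 and 5 factors, 493 and 754 of 17532 genes were higher and 456 and 721 lower. No member of any class passed the main test at an adjusted p of 0.1. Since bulk tissue was sequenced, fewer cells of a type and less RNA per cell cannot be told apart.

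**Figure D2:**
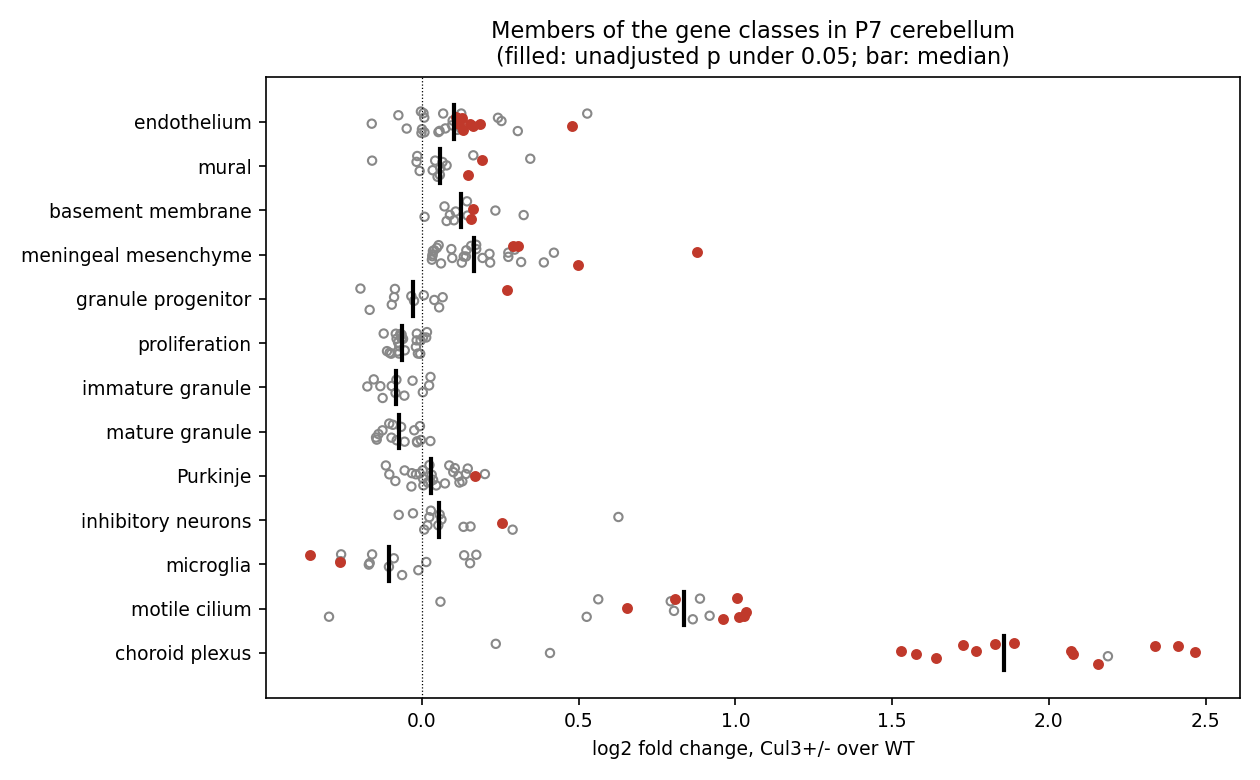
Log2 fold change (Cul3+/- over WT, x axis) of each tested member of 13 gene classes (y axis) in P7 CB. Filled points had an unadjusted p under 0.05, open points did not, and the bar is the class median. Choroid plexus (median 1.86) and motile cilium genes (0.84) lie far to the right, vascular and mesenchymal classes slightly right of 0, and granule neuron classes slightly left.

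Vascular genes had slightly higher values in mutants. Of 30 endothelial genes, 25 had a positive log2 fold change, with a median of 0.10 (51.7% of all genes were positive), and 8 were higher and 0 lower at an unadjusted p under 0.05. Kdr, the main receptor for vascular endothelial growth factor, measured 63.9, 66.5 and 74.7 CPM in WT and 72.5, 75.0 and 80.5 CPM in mutants, a log2 fold change of 0.16 (SE 0.044). Only WT 2 reached the mutant range. Cdh5, the cadherin of endothelial junctions, measured 25.5, 27.4 and 34.7 CPM in WT and 31.1, 32.1 and 34.0 CPM in mutants, a log2 fold change of 0.19 (SE 0.065), with WT 2 above every mutant and the other WT libraries below them. Cd93, Cd34, Flt1, Egfl7, Pecam1 and Plvap made up the rest of the 8. Other endothelial genes differed less. Cldn5, the tight junction claudin of the blood-brain barrier, had a median of 87.7 CPM in WT and 86.7 CPM in mutants (log2 fold change −0.00, SE 0.055). Mfsd2a, a lipid transporter of barrier endothelium, differed by 0.01 (SE 0.067) and Vwf by −0.00 (SE 0.071). The mean log2 CPM of the 30 genes was 3.77 to 3.95 in WT and 3.90 to 4.03 in mutants, and it was higher in mutants by 0.11, 0.10 and 0.14 within prefixes C1, C2 and C4.

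Mural cell genes (pericytes and smooth muscle) and basement membrane genes had medians of 0.06 (15 genes, 2 higher) and 0.13 (12 genes, 2 higher). Pdgfrb, the receptor by which pericytes are recruited, measured 28.6, 33.0 and 35.9 CPM in WT and 33.0, 36.1 and 38.7 CPM in mutants, a log2 fold change of 0.15 (SE 0.056). Pxdn, a peroxidase that crosslinks collagen IV, measured 43.1, 45.4 and 48.1 CPM in WT and 48.0, 49.9 and 55.4 CPM in mutants (0.16, SE 0.044). All 12 basement membrane genes were positive, the collagen IV chains Col4a1 and Col4a2 among them at 0.11 (SE 0.057) and 0.14 (SE 0.069). The number of endothelial genes at p under 0.05 fell to 3 without mutant 4, to 4 without mutant 1, WT 1, WT 4 or WT 5 and to 5 without mutant 2 or WT 3, and that of basement membrane genes rose to 4, 5 and 6 without mutant 3, WT 6 and WT 2. The number of mural genes was 0 without mutant 6 or WT 4, and 1 without mutant 1, mutant 2, WT 1 or WT 3, with 1 lower without mutant 1. With the choroid plexus score as a covariate, 4 endothelial genes (Kdr, Cdh5, Cd93 and Eng) were higher at p under 0.05 (background 1.44%), with a median of 0.09.

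Mesenchymal genes pointed the same way, but much of the difference came from 1 library. All 30 genes of the meningeal mesenchyme list had a positive log2 fold change, with a median of 0.17 and 4 higher at p under 0.05. Col14a1, a fibril-associated collagen, measured 1.40, 2.36 and 4.23 CPM in WT and 2.66, 4.68 and 6.11 CPM in mutants, a log2 fold change of 0.88 (SE 0.26). Postn, which encodes the matrix protein periostin, measured 16.7, 17.02 and 21.9 CPM in WT and 17.4, 22.5 and 26.4 CPM in mutants (0.29, SE 0.094). Col1a1, the chief fibrillar collagen, ranged from 46.5 to 101 CPM in WT and from 52.3 to 215 CPM in mutants, where 215 was mutant 1. Its log2 fold change of 0.39 (SE 0.32) turned to −0.08 without that library. Without mutant 1 the class median was 0.03, with 20 of 30 genes positive and 2 higher at p under 0.05. The mean log2 CPM was higher in mutants by 0.25, 0.14 and 0.21 within prefixes C1, C2 and C4, and mutant 1 belongs to C1. There were also 2 without WT 1 or WT 5, and 8 without WT 2, with a median of 0.24. With the choroid plexus score as a covariate, 0 of 30 genes were at p under 0.05 (edgeR's quasi-likelihood test) and the median was 0.19. The median SE of these genes was 0.18 in that fit and 0.14 in the main fit. The border macrophage list was likewise highest in mutant 1, at a mean log2 CPM of 1.88 against 0.95 to 1.26 in the other mutants, and its part in the result was not tested.

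**Figure D3:**
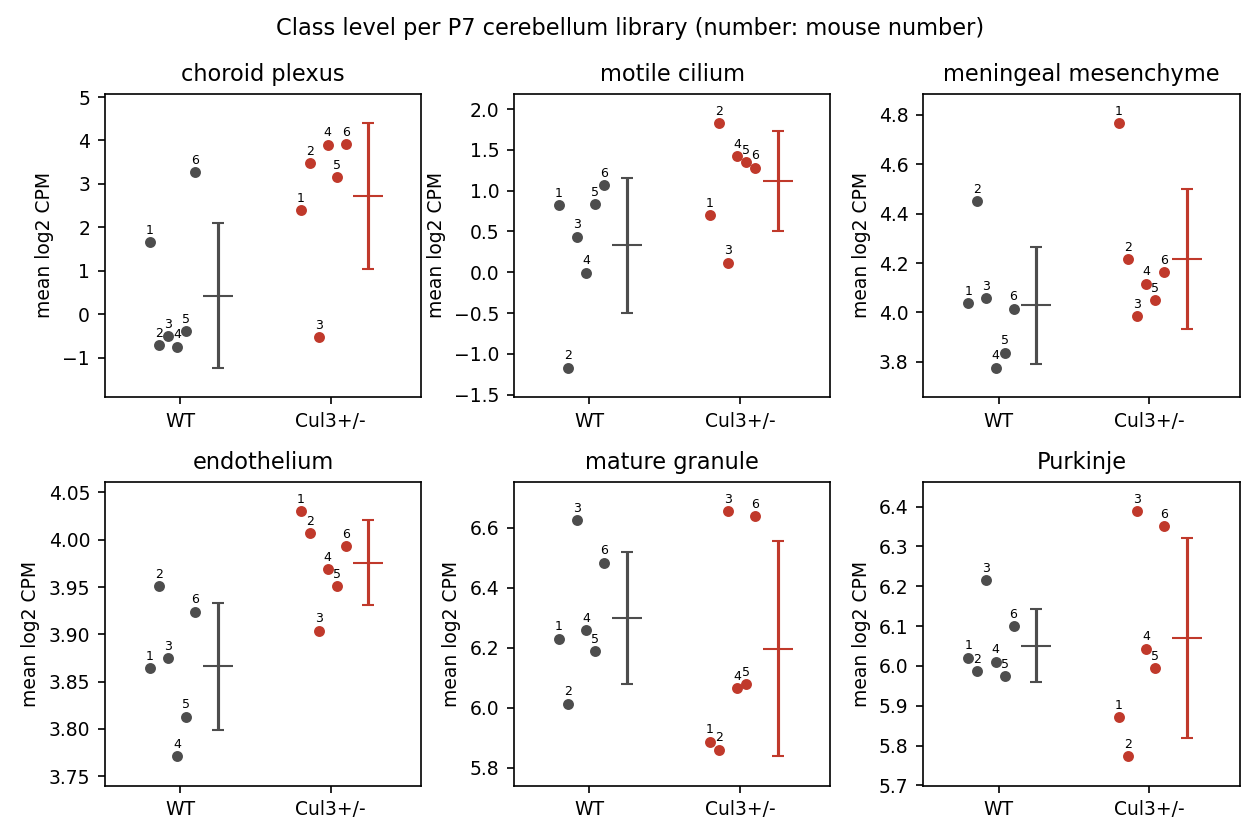
Mean log2 CPM of the members of 6 classes (y axis) in each P7 CB library, by genotype (WT grey, Cul3+/- red), with points numbered by mouse and lines and bars for mean ± SD. Mutant 3 lies with the low WT libraries for choroid plexus, mutant 1 stands alone for meningeal mesenchyme, and mature granule and Purkinje genes are highest in the same libraries of either genotype.

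Granule neuron genes had slightly lower values on balance, within the spread between mice. Of the 12 genes on the progenitor list, which also holds the neuronal marker Rbfox3, 1 (Hhip) was higher and 0 lower at p under 0.05. When mutant 1, mutant 3, mutant 4 or WT 3, for example, was left out, 1 was lower as well. Atoh1, the transcription factor that defines these progenitors, measured 17.6, 23.7 and 28.5 CPM in WT and 17.9, 20.5 and 21.8 CPM in mutants, a log2 fold change of −0.20 (SE 0.096, unadjusted p = 0.0606 by edgeR). Of 24 genes of the cell cycle, 21 were negative, with a median of −0.06, and 0 were at p under 0.05 in either direction, Mki67 among them at −0.00 (SE 0.077). Without WT 6 all 24 were negative and 4 were lower at p under 0.05, and 1 was lower without mutant 1. The median turned to 0.02, with 14 positive, with the choroid plexus score as a covariate, and to 0.00, also with 14 positive, by RUVs with 3 factors. Of 12 immature granule cell genes 9 were negative, with a median of −0.08 and 0 at p under 0.05 in either direction by edgeR. Without mutant 3, 4 were lower at p under 0.05, without WT 6 2, and without mutant 6 or WT 5 1, and the median was −0.02 with the choroid plexus covariate. By RUVs with 3 and 5 factors 0 and 3 were lower. Cntn2, an adhesion molecule of the parallel fibers, measured 572, 640 and 707 CPM in WT and 453, 560 and 693 CPM in mutants (−0.17, SE 0.088).

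Of 16 mature granule cell genes 15 were negative, with a median of −0.07 and 0 at p under 0.05 in either direction by edgeR. Gabra6, a GABA receptor subunit that appears as granule cells mature, measured 22.5, 36.3 and 60.1 CPM in WT and 13.6, 25.8 and 63.0 CPM in mutants, a log2 fold change of −0.15 (SE 0.36). Cbln1, the secreted organizer of the parallel fiber synapse, measured 318, 327 and 354 CPM in WT and 245, 291 and 358 CPM in mutants (−0.14, SE 0.074). The class level spanned 5.86 to 6.66 log2 CPM in mutants and 6.01 to 6.62 in WT, with mutants 3 and 6 and WT 3 at the top and mutants 1 and 2 at the bottom. Without mutant 3, 2 of the 16 genes were lower at p under 0.05, and without mutant 6 there was 1. By RUVs with 3 and 5 factors the class median was −0.12 and −0.10, with 15 of 16 genes negative in both and 1 and 2 lower at p under 0.05. The class median was −0.17 without mutant 3 and 0.01 without WT 3, and 0.01 with the choroid plexus score as a covariate, so its sign was not fixed by these libraries.

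Genes of Shh signalling had a median near 0. Of 17 tested, 2 were higher at p under 0.05 and 0 lower, with a median of 0.00. Most progenitor genes are also in this list, so Hhip is counted in both. Hhip, which binds Shh and is induced by it, measured 12.7, 14.3 and 14.9 CPM in WT and 14.3, 17.2 and 19.7 CPM in mutants, a log2 fold change of 0.27 (SE 0.078). Cdon, a co-receptor of Shh, measured 6.96, 8.55 and 9.72 CPM in WT and 9.30, 10.4 and 11.6 CPM in mutants (0.31, SE 0.090). The receptor Ptch1 differed by 0.06 (SE 0.038) and the transcription factor Gli1 by 0.01 (SE 0.078). With the choroid plexus score as a covariate the values of Hhip and Cdon were 0.17 and 0.22, and neither was at p under 0.05.

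Purkinje cell genes gave no difference in one direction. Of 28 genes, 20 were positive, the median was 0.03, and 1 was higher at p under 0.05. That gene, Plcb3, a phospholipase of glutamate receptor signalling, measured 26.6, 29.0 and 32.4 CPM in WT and 28.1, 32.2 and 37.5 CPM in mutants (0.17, SE 0.079). Calb1, the calcium-binding protein that marks these cells, measured 491, 537 and 571 CPM in WT and 427, 532 and 648 CPM in mutants (0.02, SE 0.093). Pcp2 measured 126, 128 and 152 CPM in WT and 89.4, 120 and 152 CPM in mutants (−0.11, SE 0.10), with mutant 2 lowest. The class median was −0.04 without mutant 3 and −0.03 without mutant 6, the 2 libraries in which these genes were highest. In each of these fits 0 genes were higher and 1 was lower at p under 0.05. By RUVs with 3 and 5 factors 2 and 5 were higher and 0 lower, with 0 and 1 called. The difference in mean log2 CPM was −0.18 within prefix C1, 0.15 within C2 and 0.02 within C4. With the choroid plexus score as a covariate the median was 0.12, with 2 genes higher at p under 0.05, Plcb3 and the transcription factor Ebf2.

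The largest differences between the genotypes were in genes of the choroid plexus and of motile cilia. Of the 16 choroid plexus genes, 13 were higher at p under 0.05, and the median log2 fold change was 1.86. Ttr, the thyroid hormone carrier that the choroid plexus secretes, ranged from 0.12 to 1597 CPM in WT, with a median of 2.76, and from 0.53 to 2922 CPM in mutants, with a median of 1577. These values correspond to 4 counts in WT 2 and 99397 counts in mutant 4. WT 2, 3, 4 and 5 and mutant 3 were all under 5 CPM, WT 1 was at 369 and WT 6 at 1597. The log2 fold change of Ttr was 2.19 with an SE of 1.66. Cldn2, a claudin of this epithelium, measured 0.94, 1.24 and 5.56 CPM in WT and 1.56, 6.44 and 10.5 CPM in mutants, a log2 fold change of 1.64 (SE 0.49). The genotypes overlapped in each of these genes, since mutant 3 lay with the low WT libraries and WT 6 with the mutants. The number at p under 0.05 was 8 without mutant 6, and the median lay between 1.63 and 2.76 when any 1 library was left out. Within prefixes C1, C2 and C4 the mean log2 CPM was higher in mutants by 2.46, 1.76 and 3.54.

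**Figure D4:**
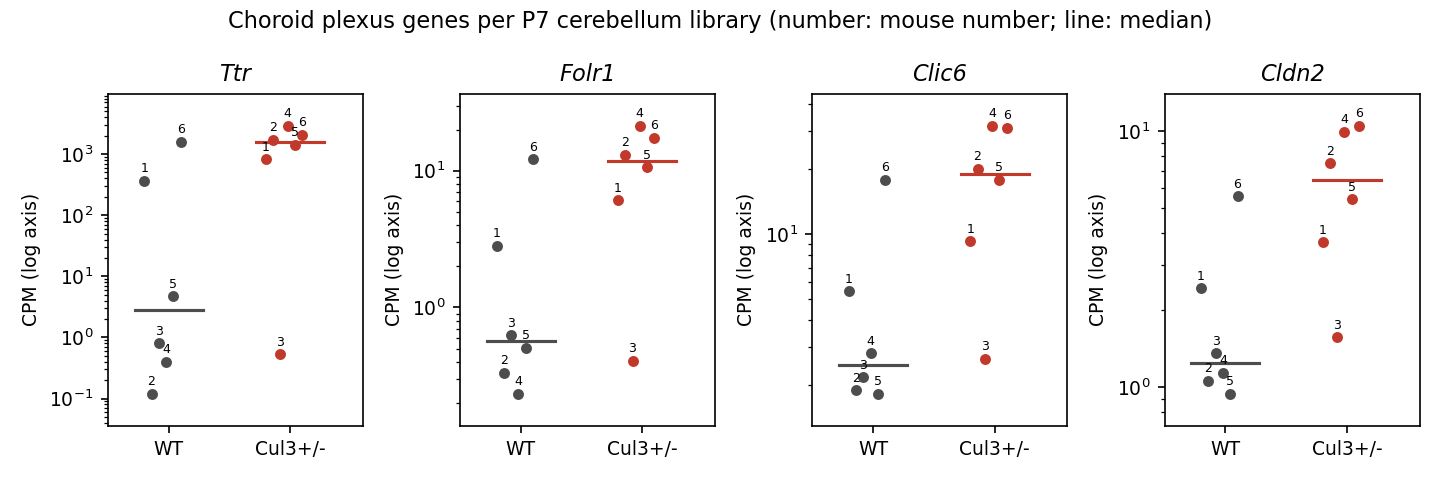
CPM on a log axis (y) of 4 choroid plexus genes in the 12 P7 CB libraries by genotype (WT grey, Cul3+/- red), with points numbered by mouse and a line at the median. Mutant 3 lies with WT 2 to 5 and WT 6 with the other mutants, and Ttr spans from 0.12 to 2922 CPM.

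Motile cilium genes, expressed by ependyma and by multiciliated choroid plexus cells, had a median log2 fold change of 0.84 over 16 genes, of which 7 were higher at p under 0.05. Foxj1, the master regulator of motile cilia, measured 1.99, 7.14 and 9.95 CPM in WT and 4.54, 12.2 and 18.5 CPM in mutants, a log2 fold change of 0.81 (SE 0.35). Spag16, a protein of the axoneme, measured 0.60, 1.05 and 1.5 CPM in WT and 0.97, 2.27 and 3.11 CPM in mutants (0.96, SE 0.31). The number at p under 0.05 was 2 without mutant 2, 4 without mutant 4, WT 2 or WT 4 and 11 without mutant 3 or WT 6, and 0 were higher once the choroid plexus score was a covariate, where the median was 0.05. The covariate is made of the choroid plexus genes, so their own median of 0.08 in that fit follows from its construction.

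Cilium genes are switched on by RFX factors, which bind the X-box. Promoter windows of 300 bases around the start of transcription (RefSeq, GRCm38.p6) were searched on both strands for its half-site GTTGCCA. Promoters were at hand for 11 of the 16 cilium genes, and 3 held it (27.3%: Tekt1, Zmynd10 and Mcidas), against 5.03% of 26994 genes. The stretches around the match, upstream of the start, are shown for Tekt1 (chr11:72361883-72361927, minus strand), a filament protein of the axoneme with a log2 fold change of 0.65 (SE 0.26), and for Mcidas (chr13:112993643-112993709, plus strand), an inducer of multiciliated cells, with the half-site in capitals. Mcidas was the 1 gene of the list with a negative log2 fold change (−0.30, SE 0.15). A match is a description of letters and does not show a bound site.
Tekt1: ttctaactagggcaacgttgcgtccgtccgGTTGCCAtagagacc
Mcidas: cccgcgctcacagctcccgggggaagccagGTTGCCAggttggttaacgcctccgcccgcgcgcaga
TAATCC, the core bound by OTX factors, which specify the choroid plexus, was in 1 of 12 choroid plexus genes with a promoter at hand (8.33%), against 8.14% of all genes.

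Microglial genes had slightly lower values on balance, and other glial and immune classes differed little. Of 15 microglial genes, 11 were negative and 2 were lower at p under 0.05 (background 1.11%), with a median of −0.11. Trem2, a lipid receptor of microglia, measured 6.19, 7.33 and 9.13 CPM in WT and 4.51, 5.43 and 7.74 CPM in mutants, a log2 fold change of −0.36 (SE 0.14). C1qa, a complement subunit, measured 18.2, 19.9 and 22.3 CPM in WT and 13.7, 15.9 and 23.3 CPM in mutants (−0.26, SE 0.11). Mutant 1 had the highest microglial score of all 12 libraries (3.77). Without it, 6 of 15 genes were lower at p under 0.05 (767 of 17709 over all genes). The number was 1 without mutant 2 or WT 3 and 0 without mutant 3, 5 or 6 or WT 4. Gfap, the filament protein of astroglia, measured 305, 430 and 488 CPM in WT and 324, 349 and 387 CPM in mutants (−0.27, SE 0.095), while the other astroglial genes gave 1 higher at p under 0.05, Hes1, a target of Notch (0.22, SE 0.078). Oligodendrocyte, erythroid and immediate early genes gave 0 of 15, 0 of 7 and 0 of 9 at p under 0.05 in either direction by edgeR.

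Partners and substrates of Cul3 were described last. Of 27 genes of the ligase machinery besides Cul3, 1 was higher at p under 0.05, the related scaffold Cul4b, at 44.7, 45.8 and 47.5 CPM in WT and 46.9, 49.9 and 52.4 CPM in mutants (0.11, SE 0.037). The adaptors Keap1, which presents Nrf2, and Kctd13, which presents RhoA, differed by −0.01 (SE 0.041) and 0.01 (SE 0.050). Of 19 genes of RhoA signalling and actin, 1 was higher, Pls3, and Rhoa itself differed by −0.01 (SE 0.038). Of 13 target genes of Nrf2, 5 were higher at p under 0.05, with a median of 0.02. Nqo1, a quinone reductase, measured 5.85, 7.10 and 7.51 CPM in WT and 6.19, 8.44 and 11.1 CPM in mutants (0.30, SE 0.12), and Gsta4, a glutathione transferase, measured 12.4, 12.7 and 17.7 CPM in WT and 12.5, 17.9 and 19.8 CPM in mutants (0.33, SE 0.11). The highest WT library for Gsta4 was WT 6 and the lowest mutant was mutant 3, as for the choroid plexus. The number of Nrf2 targets at p under 0.05 fell to 1 without mutant 1 or mutant 4, to 2 without mutant 2, mutant 6, WT 1, WT 2 or WT 4, to 3 without WT 3 or WT 5, and to 0 with the choroid plexus covariate (edgeR).

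The genotype effect in CB was compared with that in CX and hippocampus (HIP) of the same mice. No gene was called in a test of the difference between CB and the mean of CX and HIP (0 of 19381, or 0%, by edgeR's quasi-likelihood test), with 871 at an unadjusted p under 0.05 (4.49%), 8 called by the likelihood ratio test (0.0413%) and 7 by DESeq2 (0.0361%). Without the mouse that gave WT 6 the quasi-likelihood test called 13, and without the mouse of mutant 3 it called 1, Npr3, a clearance receptor for natriuretic peptides. The difference was 0.90 (SE 0.18) for Npr3, whose log2 fold change was 0.99 in CB, 0.18 in CX and 0.04 in HIP. In CB, Npr3 was highest among WT in WT 6 (4.26 CPM) and lowest among mutants in mutant 3 (2.44 CPM), as choroid plexus genes were, and its log2 fold change was 0.41 with that score as a covariate. For Pls3 the difference was 0.21 (SE 0.066). The values in CX and HIP were 0.13 and 0.11 for Nrp1, 0.30 and 0.32 for Igfbp7, and −0.14 and 0.03 for Wif1. Class medians in CX and HIP were 0.10 and 0.13 for endothelium (6 and 7 genes higher at p under 0.05, background 1.52% and 3.45%), 0.25 and 0.31 for meningeal mesenchyme, −0.08 and −0.08 for mature granule genes and −0.16 and −0.13 for microglia. Of 15 microglial genes, 14 were negative in each, with 4 lower in CX and 3 in HIP at p under 0.05. Over all genes, 300 of 17675 were lower in CX and 284 of 17754 in HIP. These regions share their mice with CB and the values stand side by side only. In the test of the difference, 1 endothelial gene was higher and 3 were lower in CB at p under 0.05, with a median of −0.04, and meningeal mesenchyme, mural and mature granule genes gave 0 in either direction (edgeR). Over all genes, 486 of 19381 were higher and 385 lower in that test. Choroid plexus genes had a median of −0.07 in CX (11 tested, 0 higher) and 1.90 in HIP (14 tested, 9 higher), against 1.86 in CB. Motile cilium genes had a median of 0.06 in CX (14 tested, 1 higher) and 0.56 in HIP (15 tested, 13 higher). In CB it was 0.84 (16 tested, 7 higher), so the higher values were not particular to CB. In the test of the difference 10 of 16 choroid plexus genes and 3 of 16 cilium genes were higher in CB at p under 0.05 (background 2.51%). That test filtered all P7 libraries together, so it took in genes too low to be tested in CX or HIP alone. It also set CB against the mean of CX and HIP, so its counts do not show a larger difference in CB than in HIP.

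**Figure D5:**
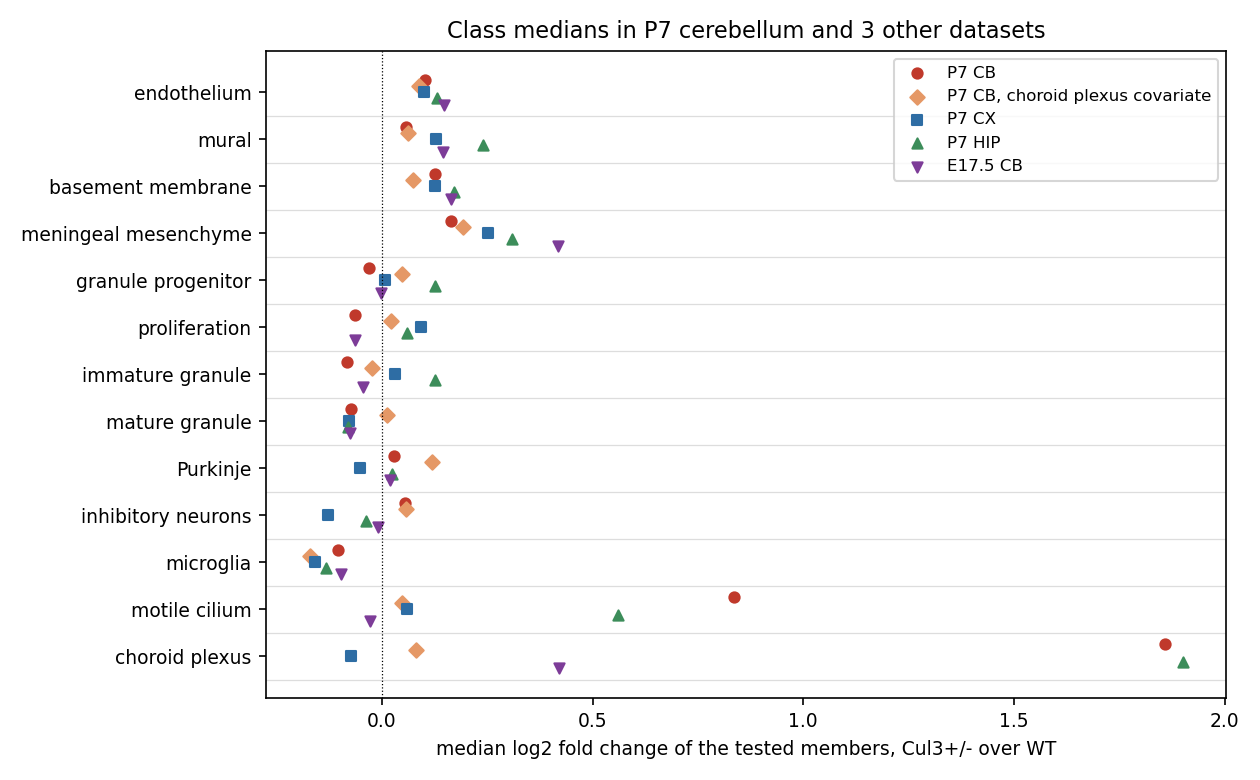
Median log2 fold change (Cul3+/- over WT, x axis) of the tested members of 13 classes (y axis) in P7 CB, in P7 CB with the choroid plexus score as a covariate, in P7 CX and HIP of the same mice, and in E17.5 CB of other mice. Choroid plexus genes reach 1.86 in CB and 1.90 in HIP but lie near 0 in CX, and vascular classes lie right of 0 in every dataset.

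At E17.5, in the CB of 6 WT and 6 Cul3+/- embryos, the log2 fold change of Cul3 was −0.79, and the vascular medians were 0.15 for endothelium (29 genes, 3 higher at p under 0.05, background 1.66%), 0.14 for mural cells and 0.16 for basement membrane. Meningeal mesenchyme had a median of 0.42 with 2 of 28 genes higher, choroid plexus 0.42 with 3 of 11, motile cilium −0.03 with 0 of 14 at p under 0.05 in either direction (edgeR), mature granule genes −0.07 and Purkinje genes 0.02. Kdr was at 0.26 (SE 0.067), Nrp1 at 0.10 (SE 0.14), Igfbp7 at 0.01 (SE 0.12) and Ttc9b at −0.24 (SE 0.062). The test of the difference between the ages called 0 of 18673 genes by edgeR's quasi-likelihood test and 1 by DESeq2 (Gm25890, 0.00536%), with 388 at an unadjusted p under 0.05 (2.08%). Of the motile cilium genes, 5 of 16 were higher at P7 in this test at p under 0.05 (background 1.49%), and of the choroid plexus genes 3 of 16. The test filtered both ages together, so it took in members too low to be tested at E17.5 alone, where 14 and 11 were tested. These are therefore not counts over genes measurable at both ages.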

How the data were processed

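The authors trimmed reads with cutadapt 1.14 and aligned them with STAR 2.5.3a (GRCm38). They deposited unnormalised expected counts from RSEM 1.3 for 53465 genes (tools and build from the submitters' processing notes). RSEM divides reads that match several transcripts, so 5.76% of values were not whole, and these were rounded. No symbol was given for 191 gene IDs. The 12 libraries, each a separate mouse, were grouped by their labels, and no pair agreed within sampling noise (Pearson r 0.979 to 0.993). The main test was edgeR 4.0.16 in R 4.3.3, as a quasi-likelihood test without covariates after filterByExpr (minimum count 10, minimum total 15) and TMM. A gene was called where its p, adjusted by Benjamini-Hochberg over all genes tested, was 0.1 or less. Each SE is the size of the log2 fold change over the root of F. CPM use TMM library sizes, and log2 CPM a prior count of 2. The region comparison took 36 libraries with the mouse as a block, the age comparison 24. Adult CB was not compared, because the labels and a table of the study disagree on the genotype of 2 adult mice.

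The members, the 28 gene lists and the tests were chosen with earlier results of these data known. Named genes were Cul3, Zfp97, Wif1, up to 8 genes in each direction with the smallest p among those without overlap, and the first members and those with the smallest p of each list (4 of each for vascular, mesenchymal, granule and Purkinje lists, otherwise 2), with genes called in a test or, up to 5, in an alternative. Further genes, such as Npr3, Mfsd2a, Vwf, Keap1, Kctd13, Tekt1, Mcidas and Zmynd10, were named after their values were seen. The alternatives were DESeq2 1.42.0, upper-quartile scaling, a fit with no filter, the likelihood ratio test, RUVs with 3 and 5 factors (own code, without sex), a block by replicate number or by mouse name prefix, Xist as a covariate, and each library left out. The choroid plexus score as a covariate was added after seeing the data. The tests were checked on simulated counts.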

Additional observations from a re-analysis of the deposited data

Results flagged for a closer look

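A library far from the other 5 of its genotype was found in 10 of the 90 groups of values examined. Chance gives about 1 in 20 for independent groups chosen without regard to their values. Here the groups share libraries and some genes were picked by their values, so 10 cannot be set against that rate. Matn2 and Klhdc7a were named because they were called without mutant 3, so its place apart in them follows largely from that choice. Mutant 1 stood high for meningeal mesenchyme, with a mean log2 CPM of 4.768, and for border macrophages, at 1.884. WT 2 stood high for border macrophages at 1.643, and low for astroglia at 7.107 and for oligodendrocyte precursors at 5.566. Mutant 3 stood low for choroid plexus genes at −0.531, for Matn2, a matrix protein, at 2.411 log2 CPM and for Klhdc7a at 0.907. Mutant 6 had the highest Cul3 of the mutants at 7.06 log2 CPM, against 6.96 to 6.99 in the other 5. WT 4 had the lowest Wif1 at 2.515 log2 CPM, against 2.90 to 3.08.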

How the results depend on the processing

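Calls numbered 3 by DESeq2 (Cul3, Nrp1 and Zfp97), 2 by the likelihood ratio test, 66 and 259 by RUVs with 3 and 5 factors, and 1 to 4 with a library left out (4 without mutant 3: Cul3, Matn2, Mdfic and Klhdc7a). The calls of RUVs with 5 factors include 4 Y-linked genes. Genes higher at p under 0.05 numbered 252 with the choroid plexus covariate and 453 to 1206 with a library left out. Lower genes numbered 456 without a filter, 456 and 721 by RUVs with 3 and 5 factors, and 136 to 796 with a library left out. With the replicate number as a block there were 812 higher and 379 lower genes and 1 call. Same-numbered WT and mutant libraries correlated in their deviations from the group means at −0.10 to 0.42, over 0.1 in 4 of 6 pairs, and 4 of 6 correlated best with their own number, which fell short of every pair, so the numbers were not taken as pairs. Same-numbered libraries also share the mouse name prefix and the presence of Xist. Their median correlation was 0.17, against −0.012 between libraries of other numbers. Whether they were matched is not stated in the labels. Region differences numbered 8 by the likelihood ratio test, 7 by DESeq2 and 0 to 13 with a mouse left out, and age differences 1 by DESeq2 and 0 with a library left out.

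The choroid plexus covariate gave medians of 0.0481 for granule progenitors (0.0377 by RUVs with 3 factors), 0.08 for choroid plexus and 0.0474 for motile cilia. Members higher at p under 0.05 numbered 4 for endothelium without a filter, by the likelihood ratio test or with the covariate. For meningeal mesenchyme they numbered 7, 16 and 0 by RUVs with 3 factors, with 5 and with the covariate, for choroid plexus 0 with the covariate, and for motile cilia 12 without a filter, 11 by the likelihood ratio test, 1 by RUVs with 3 factors and 0 with the covariate. With a library left out they ran from 3 to 9, 2 to 8, 8 to 14 and 2 to 11. Medians then ran from 0.08 to 0.11 for endothelium, 0.01 to 0.08 for mural cells, 0.10 to 0.15 for basement membrane, 0.03 to 0.24 for mesenchyme, −0.06 to 0.01 for progenitors, −0.11 to −0.03 for the cell cycle, −0.11 to −0.05 for immature and −0.17 to 0.01 for mature granule genes, −0.04 to 0.08 for Purkinje, −0.04 to 0.02 for Shh, 1.63 to 2.76 for choroid plexus and 0.62 to 1.01 for cilia.

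Among the 140 named genes, 123 of 3080 refitted values had the other sign, 0 of 1100 among the 50 with p under 0.05. Those 50 stand out by their p in the same libraries that the refits reuse, so their shared sign was largely fixed in advance. Of 477 class and count values under alternatives, 425 stayed within the limits set for them, and the cause of the others was not tested. Depth was similar across libraries, and genes under about 1 CPM rest on few counts.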

Other observations

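Genes of the glucocorticoid and hypoxia responses had a mean log2 CPM of 3.458 to 3.601 in WT and 3.588 to 3.636 in mutants, a difference of 0.069, and of 0.056, 0.096 and 0.014 within prefixes C1, C2 and C4. Ddit4, an inhibitor of mTOR signalling that stress induces, measured 74.9, 87.5 and 101 CPM in WT and 68.9, 73.2 and 82.7 CPM in mutants, a log2 fold change of −0.24 (SE 0.067) and −0.13 with the choroid plexus covariate. Of the 18 genes of this list, which includes Ddit4, 1 was higher and 1 lower at an unadjusted p under 0.05. Gria1, an AMPA receptor subunit, was the 1 of 29 glutamate and GABA receptor genes lower at p under 0.05, at 169, 177 and 194 CPM in WT and 151, 161 and 180 CPM in mutants (−0.13, SE 0.054). Lmx1a, a factor of the roof plate and of unipolar brush cells, measured 1.03, 2.82 and 3.74 CPM in WT and 1.94, 5.37 and 6.82 CPM in mutants (0.88, SE 0.34), and 0.09 with the choroid plexus covariate.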
